A study of Drosophila melanogaster with 2 samples.

Results

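Genes of cell junctions and cell polarity were examined for binding of the zinc finger protein ATbp in Drosophila melanogaster embryos. The 10 genes were shg, cno, ed and pyd of the adherens junction, baz, crb and sdt of apical polarity, and scrib, dlg1 and l(2)gl of basolateral polarity. They are 10 of the 13968 protein-coding genes, and of 18277 genes in all, that Ensembl places on the 7 chromosomes used. The list was selected on gene function with peak signals of these data already known, and cno was named for one of the strongest intron peaks, so the signals and ranks below are descriptions and carry no test. For each gene, every peak summit in the gene body and the 5 kb to either side was taken. These windows held 44 of the 5921 summits that passed the authors' irreproducible discovery rate (IDR) threshold and 244 of the 30000 summits in their relaxed list from pooled reads.

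All values come from 1 group, chromatin of whole embryos of both sexes collected 0 to 14 h into development, with 2 biological replicates. The embryos came from a transgenic line in which ATbp carries enhanced green fluorescent protein at its C terminus, and by the sample descriptions the immunoprecipitation used an antibody against that tag, although another label field names ATbp itself as the antibody target. The labels name no promoter for the fusion gene. Whole embryos mix all cell types and a wide span of stages, so no summit can be assigned to epithelial cells. Peak lists without a control group were analysed, and their read depth is unknown. Signal values are those deposited by the authors and serve here to rank peaks inside a single list.

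Epithelial cells are held together near their apical side by adherens junctions, in which the transmembrane protein E-cadherin joins neighbouring cells and is tied to the actin cytoskeleton. The sides of the cell are set apart by proteins that keep to their own zone: the Par and Crumbs proteins apically, and the Scribble, Discs large and Lethal giant larvae proteins basolaterally. In flies these proteins act in embryonic epithelia, though not all of them in every one, and Bazooka is among the first to mark where the junctions form.

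ATbp summits were found at 9 of the 10 genes (90.0%), and l(2)gl was the exception. The share over all protein-coding genes was 45.3%. It was 67.4% for the 2438 genes with a window at least as long as the shortest of the 10, which is that of shg at 17.5 kb, and 72.9% for the 398 genes with a window at least as long as the members' median of 54.1 kb. The count of 9 is therefore to be read against a background in which most long genes hold a summit. Per length, the 10 windows held 0.751 IDR summits per 10 kb, compared with 0.527 over the windows of all protein-coding genes and 0.381 over the 398 longest. The adherens junction genes held 0.774 per 10 kb, the apical genes 0.789 and the basolateral genes 0.670. In the relaxed list the 10 windows held 4.17 summits per 10 kb and the 398 longest windows 2.16. Of the 244 relaxed summits in the 10 windows 18.0% were IDR summits, near the 19.7% of the whole relaxed list.

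**Figure D1:**
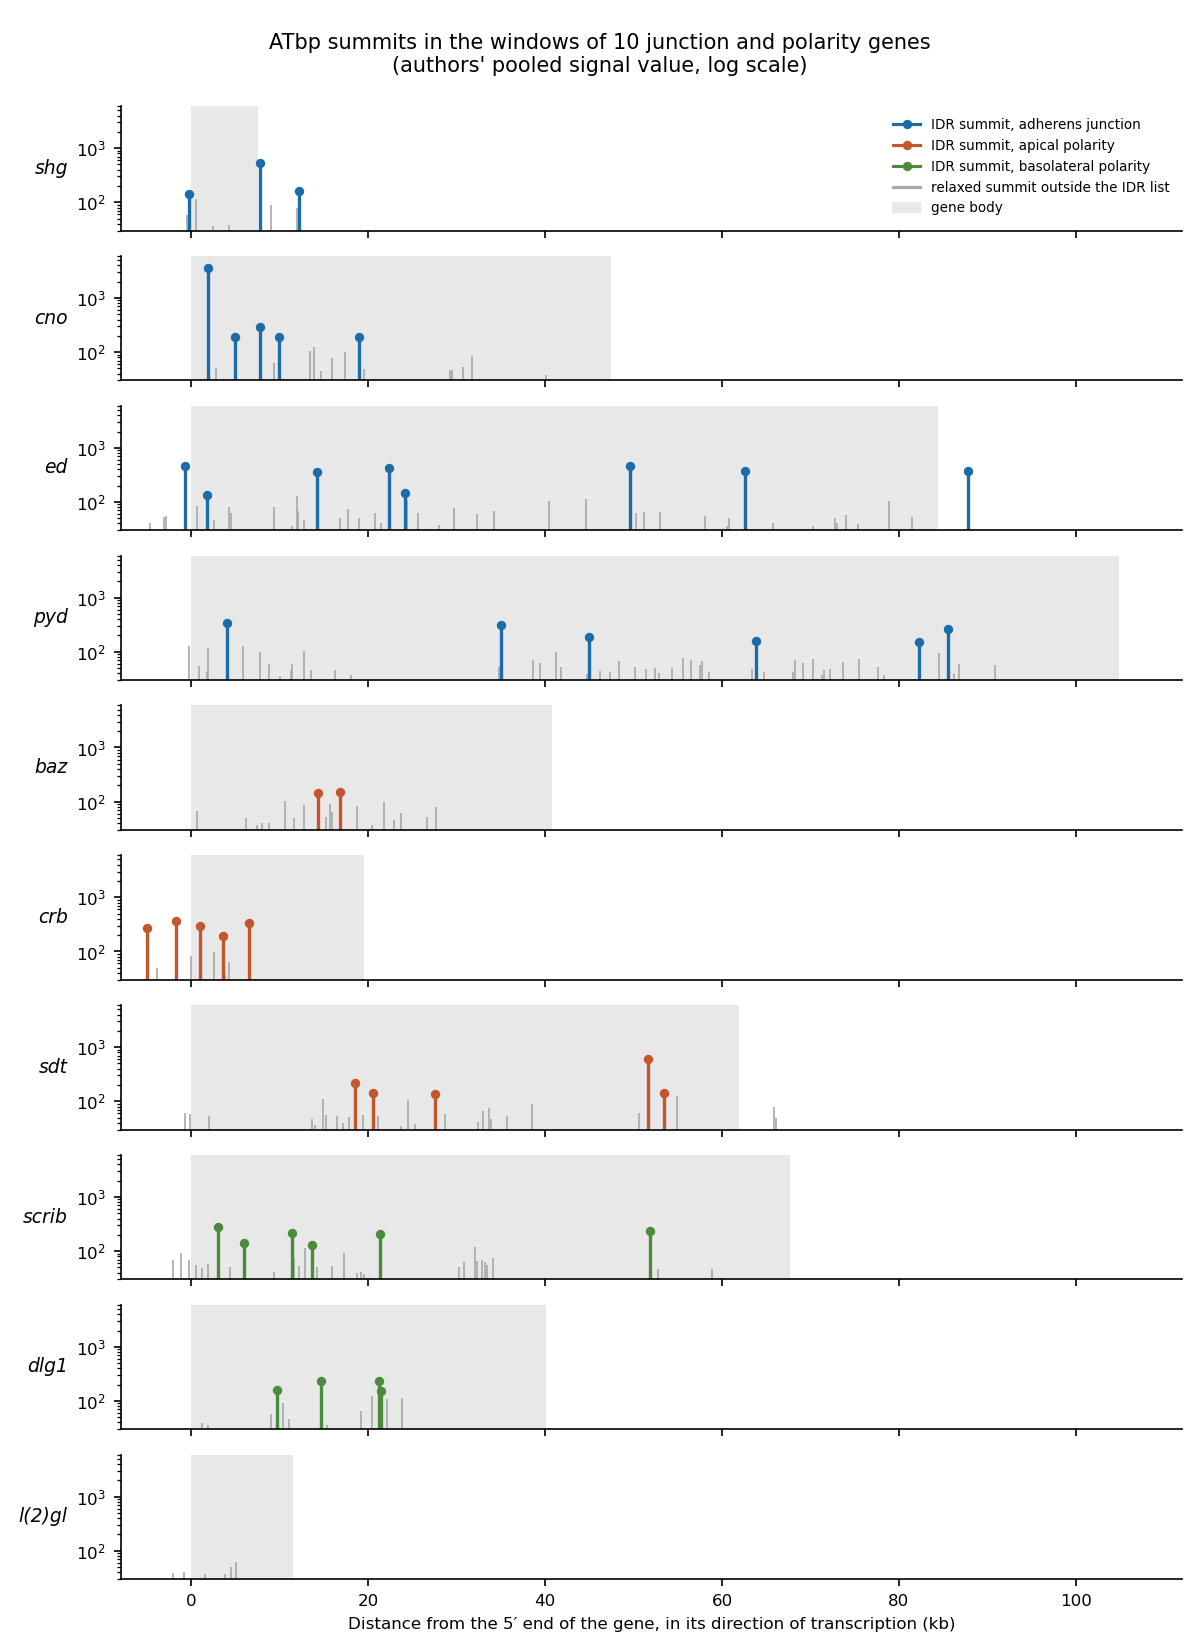
ATbp summits in the window of each gene, by distance from the 5′ end of the gene in kb and by the authors' pooled signal on a log scale. Coloured stems are the 44 IDR summits, grey stems the 200 relaxed summits outside the IDR list, and grey blocks the gene bodies; the cno summit at 3576 stands above all others, and l(2)gl has grey stems only.

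The strongest summit of the 10 genes lay in cno, which encodes Canoe, the fly Afadin that links junctions to actin. It was at 5215528 on 3R, 1.93 kb downstream of the first start site, in intron 1 (13.5 kb) of 7 of the 8 annotated transcripts. Its pooled signal was 3576, rank 3 of 5921. In replicate 1 the signal was 2340.0, rank 2, and in replicate 2 it was 1250.2, rank 12, with summits no more than 2 bp apart from the pooled one. Of the other 43 summits the highest reached 610.4, at sdt. The remaining 4 summits of cno lay at signals of 189 to 287, 3 of them in the same intron. They were at 4.98, 7.80 and 9.92 kb from the 5′ end, and 18.9 kb from it a summit stood 232 bp upstream of the second start site. All 4 had a counterpart within 100 bp in both replicates, at ranks of 2439 to 6496 in replicate 1 and 1904 to 4457 in replicate 2.

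The DNA under the strongest summit is shown for 8 genes, so that the cno site can be read beside those of the others. For crb and baz the strongest summit lies in an untranslated region, and the strongest in an intron is shown in its place, a choice made after the positions were seen. Each sequence is the summit base with 50 bp to either side, on the plus strand of dm6, and capitals mark matches to 7 short sequences described further on.
cno (chr3R:5215478-5215578): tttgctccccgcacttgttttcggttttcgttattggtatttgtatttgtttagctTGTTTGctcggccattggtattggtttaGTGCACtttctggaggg
sdt (chrX:8230081-8230181): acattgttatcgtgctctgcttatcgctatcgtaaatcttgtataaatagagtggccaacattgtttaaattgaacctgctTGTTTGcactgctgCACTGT
ed (chr2L:4080939-4081039): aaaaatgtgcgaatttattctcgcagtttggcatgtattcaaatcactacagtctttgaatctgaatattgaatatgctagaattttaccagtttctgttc
pyd (chr3R:8927841-8927941): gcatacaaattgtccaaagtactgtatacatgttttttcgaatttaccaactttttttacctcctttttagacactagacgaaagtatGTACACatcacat
crb (chr3R:24301592-24301692): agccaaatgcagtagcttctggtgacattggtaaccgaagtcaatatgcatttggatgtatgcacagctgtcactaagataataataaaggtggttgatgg
scrib (chr3R:26539282-26539382): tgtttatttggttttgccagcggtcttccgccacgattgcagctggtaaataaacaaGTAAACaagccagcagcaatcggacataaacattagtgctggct
dlg1 (chrX:11390778-11390878): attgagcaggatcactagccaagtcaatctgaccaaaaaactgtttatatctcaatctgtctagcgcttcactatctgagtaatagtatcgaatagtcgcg
baz (chrX:17174328-17174428): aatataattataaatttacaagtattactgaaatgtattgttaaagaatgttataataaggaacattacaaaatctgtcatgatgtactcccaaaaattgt
The cno sequence holds a match to CAAACA 6 to 11 bp right of the summit and one to GTGCAC 34 to 39 bp right of it. The sdt sequence also holds CAAACA, and scrib holds GTAAAC 7 to 12 bp right of its summit. The ed, crb, dlg1 and baz sequences hold no match to any of the 7, although the strongest crb summit, which is not the one printed, holds CAAACA and GTAAAC. The sequence of baz carries an unbroken run of 18 A or T.

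The shg gene, which encodes E-cadherin, had 3 IDR summits around a body of 7.54 kb and none inside it. The strongest lay at 21049465 on 2R, 189 bp past the 3′ end of the gene, with a pooled signal of 522 (rank 787) and signals of 352 in replicate 1 (rank 474) and 164 in replicate 2 (rank 1602). Its sequence, not printed here, holds CAAACA and GTACAC. A second lay 4610 bp past the 3′ end, with a signal of 162. The third stood 265 bp upstream of the shg start site, with a signal of 144 (rank 5168), and is also within 500 bp of a start site of cpa, a neighbouring gene. Replicate 2 had that promoter summit at rank 3645, whereas the nearest replicate 1 summit was 136 bp away.

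The ed gene, which encodes the immunoglobulin-domain adhesion protein Echinoid, had the most IDR summits, 8 in a window of 94.4 kb. Of these 6 had signals of 360.2 to 466 and 2 were weaker, at 135 and 148. The 6 stronger summits ranked between 1241 and 1516 in replicate 1 and between 734 and 1448 in replicate 2, so each was among the 1516 strongest of either replicate. One lay 706 bp upstream of the start site, 1 lay 3399 bp past the 3′ end, and the other 4 were in introns 14.3 to 62.6 kb from the 5′ end. None was within 500 bp of the ed start site.

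The pyd gene, which encodes Polychaetoid, the fly ZO-1 scaffold, had 6 IDR summits in the longest window, 114.8 kb. The strongest, at 8927891 on 3R, had a signal of 345 and ranks of 2405 in replicate 1 and 1246 in replicate 2. It lay in intron 1 (49.4 kb) of 1 of the 12 transcripts, as did those of signal 315 and 184. A summit 79 bp upstream of an internal start site differed most between the replicates among the pyd summits found in both, with rank 1221 in replicate 1 and 6924 in replicate 2.

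Among the apical genes, crb, which encodes the transmembrane determinant Crumbs, had 5 IDR summits in a window of 29.5 kb. This is 1.70 per 10 kb, next to 1.71 at shg and under 1 at each other gene. The 3 inside the gene were all in its first intron of 9.34 kb, with signals of 291, 192 and 334 at 0.988, 3.55 and 6.56 kb from the start site. The other 2 were upstream of crb and belong by position to its neighbour Uck. One of them, with the highest signal of the window (370), lay in a 3′ UTR of Uck, and the other, with a signal of 276, was within 500 bp of start sites of Uck and CG34290. All 5 were within the 5921 strongest summits of either replicate.

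The sdt gene, which encodes Stardust, the scaffold that binds Crumbs, had 5 IDR summits in 71.9 kb. The strongest, at 8230131 on X, had a pooled signal of 610.4 (rank 562), with 393 in replicate 1 (rank 382) and 214 in replicate 2 (rank 1040). It stood 483 bp upstream of 1 of the 7 start sites of sdt, 51.6 kb from the 5′ end of the gene, and the other 4 were intronic with signals of 135 to 219. The baz gene, which encodes Bazooka, the fly Par-3, had 2 IDR summits in 50.7 kb, both weak. They had signals of 149, in a 5′ UTR exon, and 143, in intron 1, and their replicate 1 ranks of 6662 and 6437 fell outside the 5921 strongest, whereas replicate 2 had them at 3346 and 4754.

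Of the basolateral genes, scrib, which encodes the scaffold Scribble, had 6 IDR summits, all in introns. Their signals ran from 130.2 to 283, with the strongest 2.98 kb downstream of the first start site at 26539332 on 3R, where the signal was 163 in replicate 1 and 113 in replicate 2. The summit at 26542351 lies inside a noncoding gene, lncRNA:CR46084, within a scrib intron. It ranked 9036 in replicate 1 and 3415 in replicate 2. The dlg1 gene, which encodes the membrane-associated guanylate kinase Discs large, had 4 IDR summits, and 2 of them were 235 bp apart near one of its 7 start sites. The stronger of this pair, with a signal of 234, had rank 1947 in replicate 2 and no replicate 1 summit closer than 227 bp. The weaker, with 152, had rank 3367 in replicate 1 and 12444 in replicate 2. Replicate 1 thus had a summit at the weaker of the pair alone, and replicate 2 had its better rank at the stronger.

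The l(2)gl gene, which encodes Lethal giant larvae, had no IDR summit in its window of 21.5 kb near the end of 2L. The nearest was 45.6 kb from the gene, at 67020. Its pooled relaxed summits numbered 6, with a highest signal of 61.0 (rank 14792). Replicate 1 had 8 there, at ranks of 10171 to 27175, and replicate 2 had 0. The first replicate 2 summit on 2L stood at 36943, and before that position replicate 1 had 11 summits. The files do not show how many reads of either library fell there, so the difference was not tested.

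**Figure D2:**
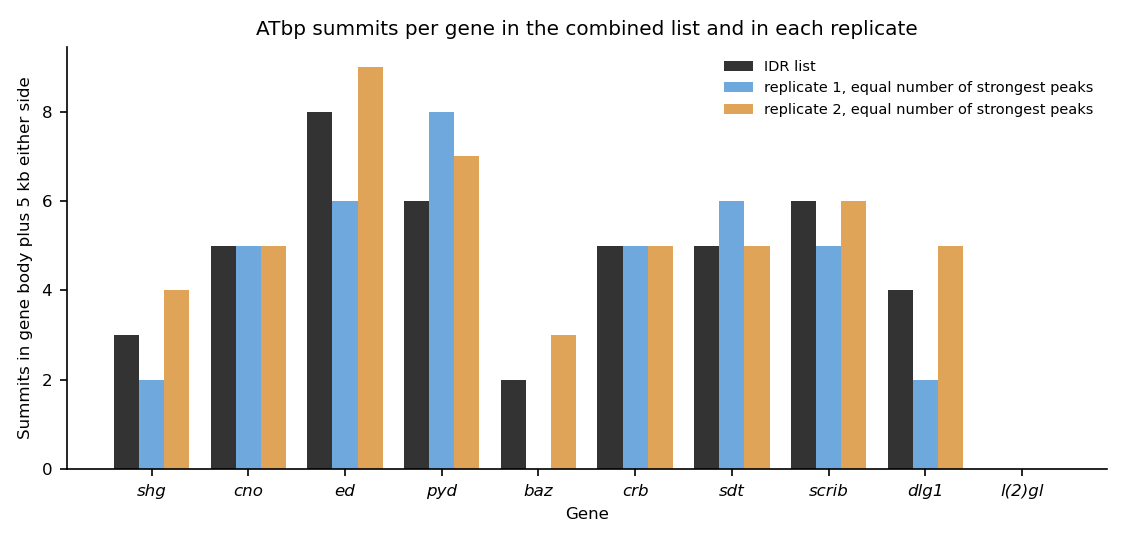
Number of summits in each gene's window in the IDR list and among the 5921 strongest summits of each replicate. cno and crb have 5 in all 3 lists, baz has 0 in replicate 1 and 3 in replicate 2, and l(2)gl has none in any of them.

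The 5921 strongest summits of replicate 1 included 39 in the windows, at 8 genes, and those of replicate 2 included 49, at 9 genes, with baz as the difference. Of the 44 IDR summits 40 (90.9%, Wilson 95% interval 78.8 to 96.4) had a relaxed summit within 100 bp in both replicates, next to 92.6% of the other 5877 IDR summits. The 4 without one were at shg, ed, pyd and dlg1. The IDR list was built from these replicates, so this share is partly fixed by its making. At the 40 shared summits the ranks of the replicates differed by a median of 1109.5, and at the other shared IDR summits by 939. Replicate 1 had the stronger rank at 17 of the 40 and replicate 2 at 23. Both ranks were within 5921 at 28 of the 44 summits.

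**Figure D3:**
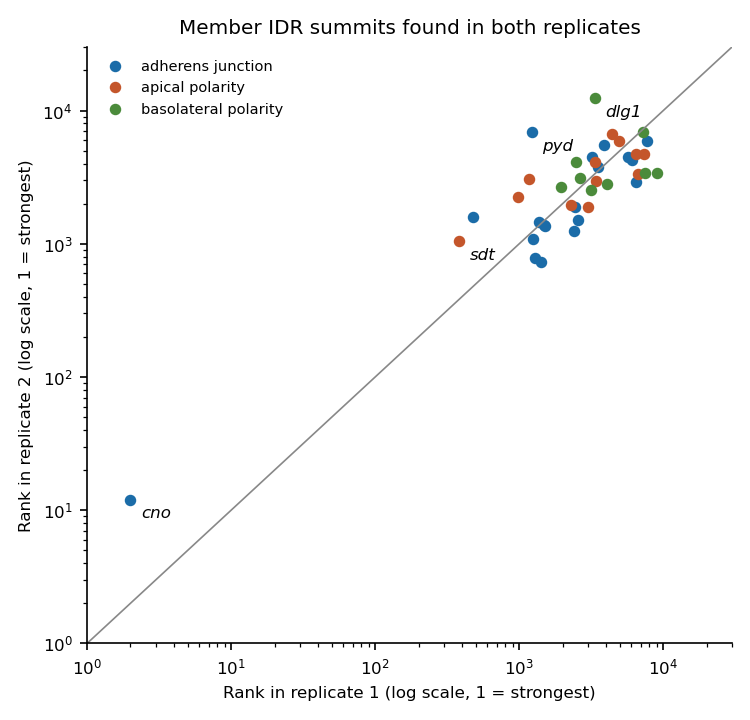
Rank in replicate 2 against rank in replicate 1, both on log scales with 1 the strongest, for the 40 IDR summits found in both; the line marks equal ranks. The cno summit stands alone at ranks 2 and 12, and the dlg1 summit farthest from the line has ranks 3367 and 12444.

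By signal the 44 summits resembled the rest of the list. Their median signal was 217, against 221 for the other 5877, and 10 of 44 ranked within 1480, against 1470 of the 5877 others. The cno summit is the only one of the 44 with a signal above 610.4, and it is the one by which cno was chosen. The summits nearest the IDR threshold were those of scrib at 130.2 (rank 5820) inside it and of pyd at 128 (rank 5939) outside it. Near the edge of the 5 kb flank, the Uck promoter summit at crb was 4979 bp from crb, and the next summit beyond, 6385 bp from pyd, was left out.

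Introns held most of the summits. Of the 44, 32 (72.7%, Wilson 95% interval 58.2 to 83.7) were intronic, against 47.0% of the other IDR summits. Introns made up 65.4% of the bases in the 10 windows and 40.5% of the 6 chromosomes without Y, so the windows themselves are richer in intron. All 32 were in an intron of the gene itself, and 17 in intron 1 of at least 1 transcript. Promoters, within 500 bp of any start site, held 6 (13.6%, interval 6.40 to 26.7), against 34.8% of the other summits, and made up 10.1% of the bases in the windows against 13.6% of the chromosomes. Coding sequence held 0 of the 44, which the Wilson interval bounds at 8.03%, against 20 of the other 5877 (0.340%), while it made up 14.7% of the bases in the windows. Few summits of the whole list were in coding sequence, so the 0 is no trait of these windows. The intervals given for these classes count the 44 summits as separate draws, although they are grouped at 9 genes. A difference from the other summits was therefore not tested. The median distance to any start site was 3.92 kb, against 1.21 kb for the other summits. Neighbouring summits within a window were a median of 4.998 kb apart, with a range of 235 bp to 31.0 kb.

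At their own start sites 5 of the 10 genes had an IDR summit within 500 bp, namely shg, cno, pyd, sdt and dlg1. Over all protein-coding genes the share was 14.9%. It was 27.2% for the genes with a window at least as long as the shortest member's and 31.2% for those at least as long as the members' median. The count was 2 within 250 bp, and 3 in replicate 1 alone or among the 2960 strongest IDR summits, whereas it was 7 within 1000 bp and 7 in the pooled relaxed list. The 3 in replicate 1 were pyd, sdt and scrib, and scrib is not among the 5. No share over all genes was taken at these other settings, so these counts have no background. At cno, pyd, sdt and dlg1 the start site was an internal one, and at shg the promoter is shared with cpa. Start sites numbered 1 at shg, 2 at cno, 6 at pyd and 7 at each of sdt and dlg1. The median was 2 over genes with a window at least as long as the shortest member's. None of the shares was matched for the number of start sites, and each further site adds a place for such a summit.

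The DNA at the 44 summits was close in A+T content to that at the other IDR summits. The summit base with 50 bp to either side held 64.8% A+T ± 7.79 (SD, 44 summits), against 64.7% ± 9.27 (SD, 5877 summits). Intronic summits held 65.3% ± 7.28 (SD, 32 summits), against 65.0% ± 8.50 at the other intronic IDR summits. The lowest value was 47.5%, at the pyd start-site summit, and the highest 80.2%, at the shg promoter. The strongest summit, that of cno, held 57.4%, which is below the mean, and its 5 summits averaged 59.8%. The 2 weak summits of baz averaged 73.3%. At crb the strongest summit was also the richest in A+T, at 75.2%, and at the other 8 genes with IDR summits it was not. The 200 relaxed summits of the windows outside the IDR list held 59.8% ± 8.88 (SD).

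**Figure D4:**
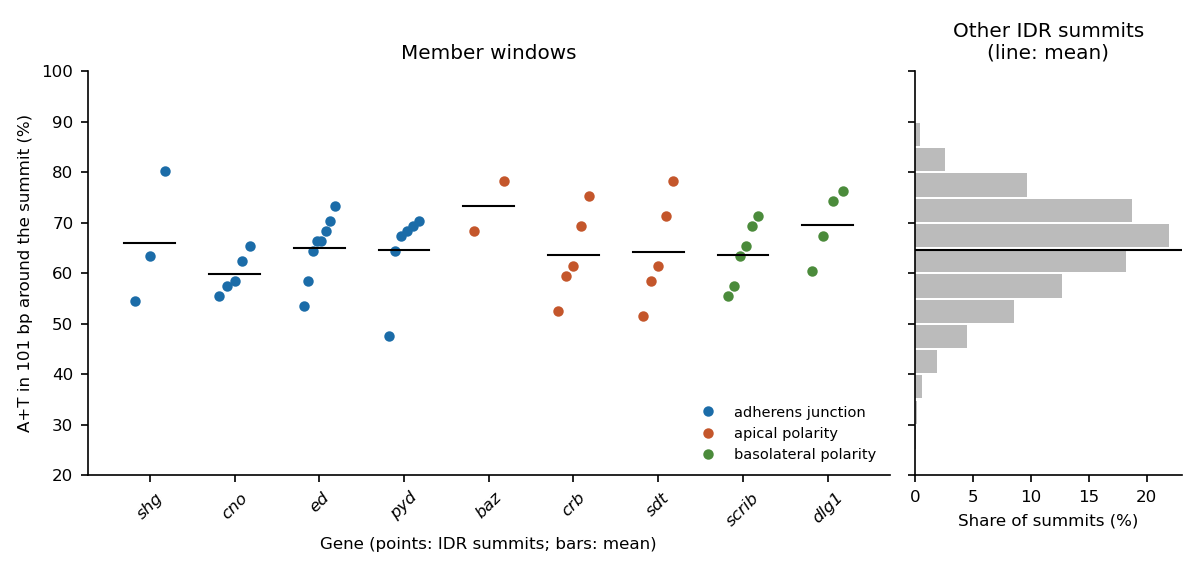
A+T content within 50 bp of each IDR summit, in percent, by gene on the left (points are summits, bars gene means) and as a histogram of the other 5877 IDR summits on the right. The 44 summits run from 47.5% to 80.2%, and the cno points lie between 55.4% and 65.3%.

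The 7 short sequences, looked for on both strands, are GAGAG and 6 others that earlier results of these data had given. For those 6 the comparison of IDR with relaxed windows is therefore not independent of how they were found. CAAACA was in 9 of the 44 summit windows (20.5%), against 18.3% of all IDR windows and 14.4% of relaxed windows outside the IDR list. GTAAAC was in 6 (13.6%), against 9.78% and 5.84%. ACAGTG was in 4 (9.09%), against 7.03% and 5.34%. GTACAC was also in 4, against 4.71% and 3.66%. GTGCAC was in 2 (4.55%), against 2.92% and 2.86%. CCAGGA was in 1 (2.27%), against 0.777% and 2.61%. GAGAG was in 2 (4.55%, Wilson 95% interval 1.26 to 15.1), against 11.7% and 12.9%. An unbroken stretch of A and T bases, 8 or longer, was in 32 (72.7%), against 70.9% and 55.9%. The Wilson interval of each of these 44-window shares holds the share of all IDR windows. These intervals treat the 44 summits as separate draws, although they are grouped at 9 genes, so a difference from the IDR list was not tested. All 3 shg summits held CAAACA.

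Other genes of cell junctions and polarity were taken from a list of 35, with 18 of septate junctions, a group not used for the 10 genes. Of the 35, 23 had an IDR summit in the gene body or 5 kb to either side and 13 had one within 500 bp of an own start site. Over all protein-coding genes the shares were 45.3% for the window and 14.9% for an own start site. Over the 2438 genes with windows of at least 17.5 kb they were 67.4% and 27.2%. The 23 of 35 is near the share of these long genes, and 13 of 35 is above both shares for an own start site. The 35 windows ran from 11.1 kb at kune to 83.3 kb at Fas3, so neither set of genes is matched to them in length. The number of start sites was not matched either. Their windows held 66 IDR summits, 0.772 per 10 kb, against 0.527 over all protein-coding windows. The further adherens junction genes held 0.366 per 10 kb, below that of all protein-coding windows. The apical genes held 1.10, the basolateral genes 0.641 and the septate junction genes 0.871. By role the counts were 3 of 7 further adherens junction genes, 5 of 6 apical genes, 3 of 4 basolateral genes and 12 of 18 septate junction genes. The strongest lay in the flank of bark, a gene of tricellular junctions, outside the gene and in an intron of its neighbour Reph. Its signal was 1486 (rank 70), with rank 83 in replicate 1 and 66 in replicate 2. Next was an intronic summit of 790.4 (rank 343) at Moe, which encodes Moesin, a link between membrane and actin. A promoter summit of 682 (rank 449) stood at sdk, which encodes the adhesion protein Sidekick. At nrv2, a subunit gene of the sodium pump, a summit of 604 (rank 576) lay at the promoter of its neighbour nrv1, and at Fas3, which encodes the adhesion protein Fasciclin III, an intronic one reached 550.4 (rank 698). Besides sdk, the genes with a summit at an own start site were Moe, bark, Vinc, par-6, kst, 14-3-3epsilon, Nrg, pck, Atpalpha, Gli, Tsf2 and M6. The partners of E-cadherin, arm, alpha-Cat and p120ctn, which encode the fly β-catenin, α-catenin and p120 catenin, had 0 IDR summits in their windows, with 3, 0 and 0 relaxed summits. The others of the 35 with 0 IDR summits were Patj, jub, 14-3-3zeta, cora, Nrx-IV, Cont, kune, sinu and crok. Most protein-coding genes have none, but 67.4% of the 2438 with windows of at least 17.5 kb have one. The windows of arm, alpha-Cat and p120ctn, at 19.2, 29.5 and 24.2 kb, are of that length. Windows of that length held 2.49 relaxed summits per 10 kb, whereas alpha-Cat and p120ctn had none of any strength. The alpha-Cat gene lies from 23318646 on 3L and p120ctn from 4595288 on 2R. How well reads map at these positions is unknown, so the lack of summits there was not tested. All of these genes without a summit were named after their values were seen.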

How the data were processed

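Chromatin of ATbp-eGFP embryos was profiled in 2 biological replicates. The authors deposited narrowPeak lists on dm6: per the labels' file lists, 1 relaxed list per replicate and 1 from pooled alignments, each made with a control alignment, and an IDR thresholded list made from these. The signal value of each peak is the authors' deposited one, on a scale not given, and the last-but-one column was read from the format as the −log10 of a q-value deposited by the authors; no result rests on it. The sources used here name no aligner, peak caller or IDR threshold. Lists on dm3 were not used, since coordinates were not converted.

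Members, gene lists and short sequences were chosen with earlier results of these data known. Coordinates are 1-based dm6, set against Ensembl release 115 (BDGP 6.54) and the RefSeq release 6 sequence. Ranks are by signal within 1 list. Summits were classed in the order promoter (500 bp from a start site), 5′ UTR, coding sequence, intron of any transcript, 3′ UTR, other exon and intergenic. Class shares of bases were taken at every 50th base. With 1 group there was no test; intervals are Wilson 95% intervals and cover counting error only, and depth is unknown. Window length, promoter width, match distance, A+T window, peak strength and each replicate alone were tried as alternatives, and the comparison with windows of at least the median member length was added later. Named genes are the 10 members, genes with a start site within 500 bp of their summits, and of the 35 further genes those with an own-promoter summit and the 5 with the strongest summits; the 12 further genes without a summit, and Reph and lncRNA:CR46084, which hold a named summit, were added after their values were seen. Python 3.11.15, NumPy 2.4.6, pandas 2.3.3, SciPy 1.17.1 and Matplotlib 3.10.9 were used. The distance to the nearest summit was tested on simulated positions, but the step that counts summits per window was not run on them.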

Additional observations from a re-analysis of the deposited data

How the results depend on the processing

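The number of genes with a summit was between 8 and 10 under every alternative tried, beside a share of all protein-coding genes that ran from 13.8% for gene bodies alone to 76.3% for the relaxed list. These shares cover genes of every length. None was taken for long genes under the alternatives, so they are not matched to the 10 genes in length. The number of the 35 further genes was between 17 and 31 under the same alternatives. It is to be read beside the same shares of 13.8% to 76.3%. The number of summits in the windows was 21 among the 2960 strongest IDR peaks and 244 in the pooled relaxed list, with densities of 0.359 and 4.17 per 10 kb, as these lists hold fewer and more peaks; over all protein-coding genes these densities were 0.279 and 2.24. Leaving out replicate 1 or replicate 2 gave 49 or 39 summits, 0.837 or 0.666 per 10 kb, 9 or 8 genes, 22 or 23 further genes, and 73.5% or 69.2% in introns. Genes with an own-promoter summit numbered 5 or 3 without replicate 1 or 2, 3 among the 2960 strongest, 2 within 250 bp, and 7 within 1000 bp or in the relaxed list. For these counts no share over all genes was taken. Mean A+T was 60.7% in the relaxed list, 62.9% in 100 bp either side, and 64.9% or 63.1% without replicate 1 or 2; the other summits had 59.7%, 63.0%, 65.3% and 63.4%, and the cause was not tested. The cno rank was 12 or 2 without replicate 1 or 2. The share of summits with a counterpart in both replicates was 84.1% within 50 bp, 97.7% within 200 bp and 100% by overlapping intervals. No paired analysis was possible because there is 1 group. The 44 summits and the unknown depth limit what these shares can resolve.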
